A study of Mus musculus with 24 samples.

Results

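The genes described here are 43 interferon-stimulated genes of the mouse, a list of genes known to respond to interferon and picked by symbol. All 43 were among the 45777 genes of the deposited table of read counts. Oas3 had fewer than 10 counts in 24 of 24 libraries and Zbp1 in 17, so both were left out of the summaries, and the 41 measured members are described below. RNA-seq had been done on prefrontal cortex from adult males of wild-type genotype, in 24 libraries in 4 groups of 6. Control mice were reared without separation and received no treatment per the labels. MS mice underwent maternal separation, a stress of early life that takes pups from the dam. Control_EC12 and MS_EC12 mice were reared in the same ways as Control and MS mice, and received 5 weeks of EC-12, a heat-killed Enterococcus faecalis (a gut bacterium) given as a supplement. Nothing in the labels ties each library to an animal of its own, so the p-values speak of the spread among the libraries, which may be technical in part.

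Cells that sense viral nucleic acid release type I interferon, which binds its receptor on the same and on neighbouring cells. The receptor's kinases activate transcription factors, STAT2 among them, which join IRF9 and bind a DNA element rich in GAAA repeats near the start of the target genes. The products block steps of viral growth, modify other proteins or damp the signal, and in the brain microglia, endothelium, astrocytes and neurons can all make them.

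Promoter windows are shown for members in which this element could be read, because it is the known binding site of that complex and was not used in choosing the list. RefSeq promoter sequences of GRCm38.p6, the assembly behind the mm10 build of the files, were found for 33 of the 43 members. The motif of GAAA, 2 bases of any kind and GAAA was searched on both strands of the 250 bases before each start site, and overlapping matches were counted once per gene. It stood in 15 of the 33 members (45.45%) and in 936 of 27025 genes with a promoter entry (3.463%). Among the genes tested for expression it stood in 431 of 13687 (3.149%). Of the 7 members with an entry that rose in the average supplement effect, Bst2 and Isg15 held it and 5 did not, which says only that the letters are not in those windows. A match is a description of the letters and does not show that a factor binds there. The 4 windows below are those of the members of smallest p in the average supplement effect among motif holders whose window lay outside annotated genes, and the capitals mark the motif matches.
Bst2: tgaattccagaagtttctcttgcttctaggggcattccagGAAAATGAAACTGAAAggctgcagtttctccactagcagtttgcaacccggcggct
Isg15: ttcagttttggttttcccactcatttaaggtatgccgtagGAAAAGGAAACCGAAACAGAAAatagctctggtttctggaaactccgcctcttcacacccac
Igtp: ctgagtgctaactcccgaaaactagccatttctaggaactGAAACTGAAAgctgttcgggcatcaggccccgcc
Stat2: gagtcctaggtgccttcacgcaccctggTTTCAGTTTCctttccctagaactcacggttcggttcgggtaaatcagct
The Bst2 window is chr8:71537547-71537642 on the minus strand, and its overlapping matches begin 130 and 124 bases before the start site. The Isg15 window is chr4:156200835-156200936 on the minus strand, with a run of 3 overlapping matches, the first 78 and the last 66 bases before the start. The Igtp window is chr11:58199482-58199555 on the plus strand, with its match 34 bases before the start. The Stat2 window is chr10:128270248-128270325 on the plus strand, and there the motif reads on the opposite strand, 222 bases before the start. A second motif, the interferon gamma-activated site of TTC, 3 bases of any kind and GAA, which can overlap the first, was found in 5 of 33 members (15.15%) and in 2197 of all promoters (8.13%). The members holding it were Bst2, Eif2ak2, Gbp7, Igtp and Oas1a.

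Library totals ran from 26250197 to 39252382 counts, and 18380 genes passed the filter on low counts. Any 2 libraries correlated at 0.958 to 0.9914 across those genes in log2 CPM (counts scaled to library size). The libraries differed in how expression ran with the GC content of the transcript. The slope was above 0 in 0 Control libraries, in MS library 3, in Control_EC12 libraries 3 and 4, and in MS_EC12 libraries 3, 4, 5 and 6, and below 0 in the other 17. The members' results in the supplement comparisons are given below also with this slope as a covariate and without those libraries. Values of other pathway genes and of cell markers are given from all 24 libraries only. Markers of excitatory cortical neurons summed to 1286 to 2025 CPM over the libraries. Whether a change in such bulk tissue came from more cells of a type or from more RNA per cell cannot be told apart.

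In the average effect of the supplement over both rearings, 8 of the 41 measured members rose and none fell. They were Irf7, Ifi35, Isg15, Oasl2, Bst2, Ifitm3, Ifi27 and Lgals3bp, with log2 fold changes from 0.31 to 0.70. A change here is an adjusted p under 0.05 over all 18380 genes in edgeR's quasi-likelihood test with Benjamini-Hochberg adjustment. By the same rule 844 of all genes (4.59%) rose and 604 (3.29%) fell, which makes 7.88% called, and 19.51% of the members rose. The members' median log2 fold change was 0.12, against 0.02 over all genes, and 27 of the 41 were above 0. At an unadjusted p under 0.05, 14 members were higher and 0 lower, where 17.2% and 16.1% of all genes were. Other fits moved the balance of all calls: 2178 rose and 560 fell with upper-quartile scaling, and 367 rose and 1992 fell in limma on the deposited TPM, which changes the values and the model at once. The members' split in those fits was 11 up and 0 down, and 6 up and 1 down (Cmpk2). Leaving out 1 library at a time gave 5 to 10 members called, where 1.15% to 24.9% of all genes were called, and Bst2, Ifi27, Irf7, Lgals3bp and Oasl2 were called each time. The 10, without MS_EC12 2, were 9 higher and Cmpk2 lower (24.4% of members), where 24.3% of all genes were called and 11.6% were higher. Without MS 3 or MS_EC12 1 there were 9, all higher (22.0%), where 21.8% and 24.9% of all genes were called and 11.1% and 11.8% were higher. The count was 5 (12.2%), where 1.15% to 3.57% of all genes were called, without each of 11 libraries, which were Control 1, 2, 3 and 5, MS 4, 5 and 6, Control_EC12 4, and MS_EC12 3, 4 and 6.

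**Figure D1:**
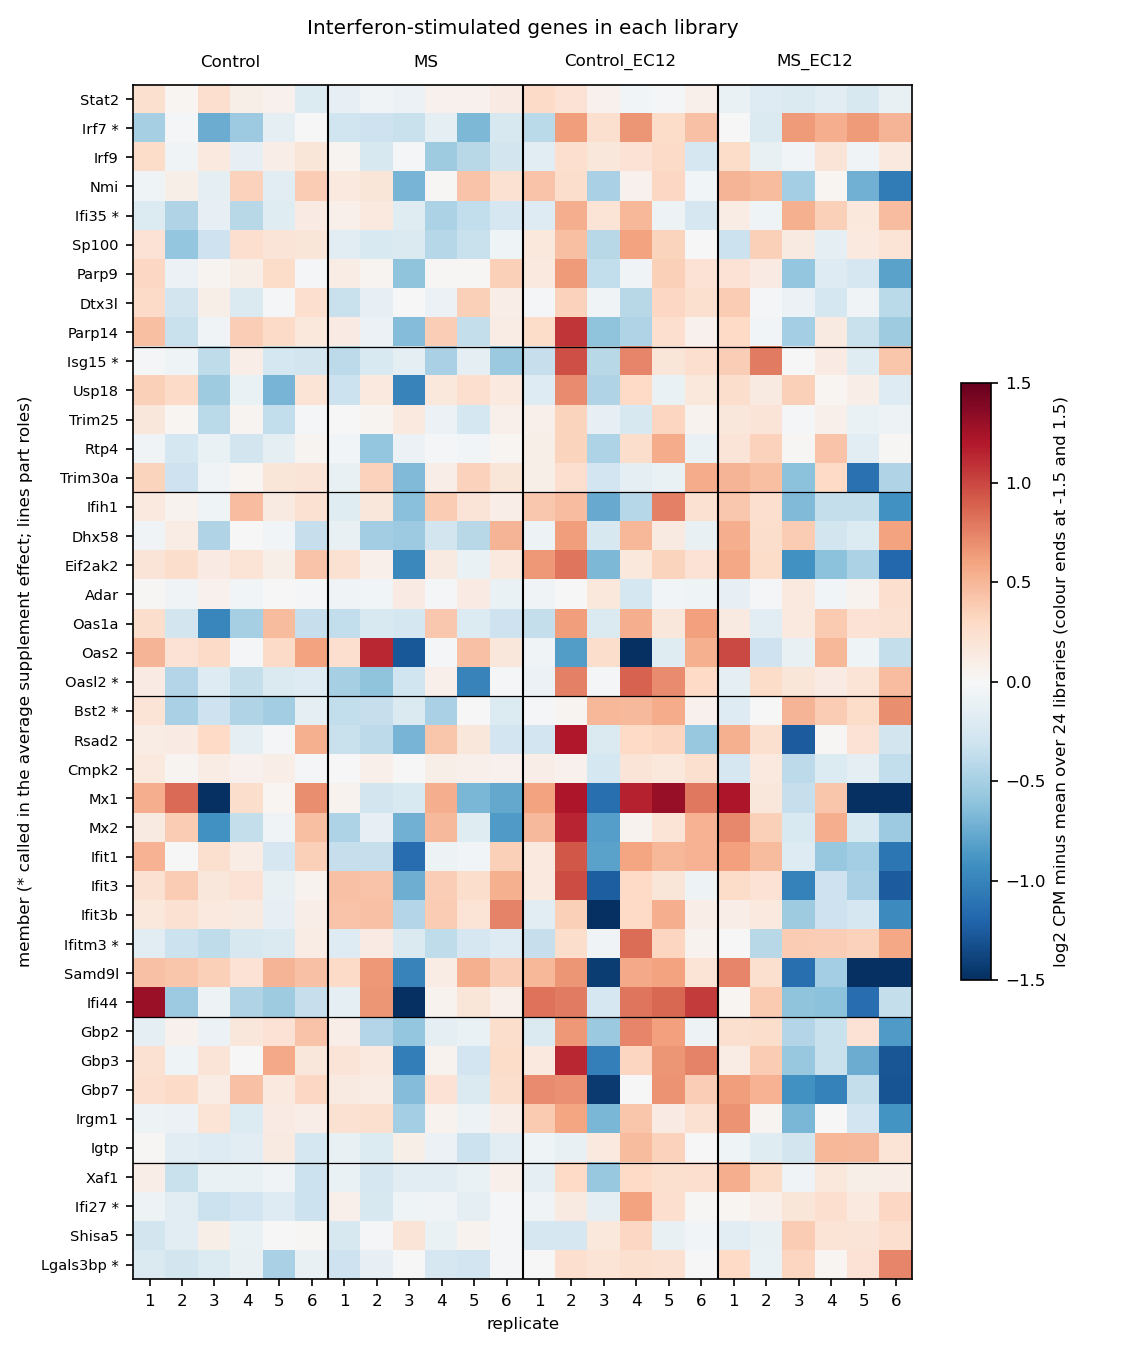
Each row is a measured member and each column a library, and the colour gives log2 CPM minus the member's mean over the 24 libraries. Members marked with a star, the 8 called, are mostly blue in the Control and MS libraries, and members such as Samd9l, Gbp7 and Ifit3 are dark blue in libraries such as MS 3, Control_EC12 3 and MS_EC12 6.

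Among the 9 members that carry the interferon signal or act in transcription, 2 rose with the supplement in that average and 7 did not pass. Irf7 encodes the transcription factor that amplifies type I interferon production (Gene 54123, chr7:141263183-141266499). Its lowest, median and highest CPM were 1.16, 1.60 and 2.00 in Control and 1.49, 2.59 and 3.20 in Control_EC12. They were 1.23, 1.61 and 1.80 in MS and 1.72, 2.91 and 3.15 in MS_EC12. In each rearing 5 of 6 supplemented libraries lay above every unsupplemented one. The log2 fold change was 0.70 ± 0.13 (SE) in the average, with an adjusted p of 0.0133 in edgeR.

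Ifi35 encodes a partner of the STAT-binding protein NMI (Gene 70110, chr11:101448412-101458701). Its CPM was 1.54, 1.86 and 2.33 in Control and 1.78, 2.24 and 3.12 in Control_EC12 (lowest, median and highest). In MS it was 1.52, 1.83 and 2.36, and in MS_EC12 2.03, 2.56 and 3.11. The groups overlapped, with 3 of 6 Control_EC12 libraries above every Control library and 4 of 6 MS_EC12 libraries above every MS library. The average log2 fold change of 0.41 ± 0.11 had an adjusted p of 0.0387 in edgeR.

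Stat2, a part of the complex that binds the element shown above, did not pass in any comparison. Its CPM was 18.7, 22.6 and 25.5 in Control, 19.8, 21.5 and 23.3 in MS, 20.9, 22.5 and 26.3 in Control_EC12 and 18.1, 19.0 and 20.0 in MS_EC12. The MS_EC12 libraries all lay below the Control_EC12 libraries, which held for 0.18% of all genes and for no other member. That difference was −0.27 ± 0.08 in log2 with an adjusted p of 0.151 in edgeR. Irf9, the DNA-binding subunit of the same complex, had an average supplement effect of 0.15 ± 0.08. The other members of this group (Nmi, Sp100, Parp9, Dtx3l and Parp14) lay between −0.08 and 0.26 in the average.

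Of the 5 members of the ISG15 pathway and of feedback on the signal, Isg15 rose in the average and 4 did not pass. Isg15 encodes the ubiquitin-like protein that is attached to other proteins in response to interferon (Gene 100038882, chr4:156199424-156200818). Its CPM was 1.13, 1.33 and 1.60 in Control and 1.10, 1.74 and 2.97 in Control_EC12. It was 0.993, 1.19 and 1.34 in MS and 1.31, 1.79 and 2.61 in MS_EC12. Of the supplemented libraries, 4 of 6 in the Control rearing and 5 of 6 in the MS rearing lay above all of their unsupplemented counterparts. The average log2 fold change was 0.55 ± 0.15 with an adjusted p of 0.0353 in edgeR.

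Rtp4, which encodes an inhibitor of interferon signalling, had CPM medians of 2.04 in Control, 2.16 in MS, 2.51 in Control_EC12 and 2.40 in MS_EC12. Its ranges were 1.83 to 2.29, 1.47 to 2.26, 1.59 to 3.29 and 1.96 to 3.02 in the same order, so the groups overlapped. The average effect of 0.28 ± 0.11 had an adjusted p of 0.0860 in edgeR and did not pass. Trim25, the ubiquitin ligase that helps activate the RNA sensor RIG-I, stood at median CPM of 6.73, 6.79, 6.97 and 6.80 in that order and at 0.10 ± 0.08 in the average. Usp18, which removes ISG15 and holds back the interferon receptor, was at 0.16, and Trim30a at −0.05.

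Among the 7 measured members that sense or act on RNA, Oasl2 rose in the average. Oasl2 encodes a member of the oligoadenylate synthetase family (Gene 23962, chr5:114896926-114912245). Its CPM was 1.95, 2.30 and 2.92 in Control and 2.52, 3.87 and 5.01 in Control_EC12. It was 1.30, 2.02 and 2.81 in MS and 2.41, 3.07 and 3.70 in MS_EC12. The lowest supplemented library lay above the median of the unsupplemented group in both rearings, and the ranges overlapped. The log2 fold change in the average was 0.62 ± 0.13 with an adjusted p of 0.0177 in edgeR.

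Dhx58 encodes LGP2, a helper of the RNA sensors, and had median CPM of 1.12, 0.901, 1.18 and 1.46 in Control, MS, Control_EC12 and MS_EC12. Its ranges were 0.826 to 1.26, 0.772 to 1.68, 0.974 to 1.82 and 0.942 to 1.79, and they overlapped. The average effect of 0.38 ± 0.15 had an adjusted p of 0.0928 in edgeR. Oas1a, an oligoadenylate synthetase gene, had medians of 0.516, 0.540, 0.861 and 0.748 CPM within ranges of 0.300 to 0.936, 0.489 to 0.885, 0.497 to 1.04 and 0.572 to 0.879. Its average effect was 0.40 ± 0.17 with an adjusted p of 0.115 in edgeR, and it did not pass. Adar, the RNA-editing enzyme, had the highest deposited TPM of the members at 81.3 on average over libraries. Its CPM ranged from 199 to 215 in Control, 192 to 225 in MS, 171 to 230 in Control_EC12 and 189 to 244 in MS_EC12, and the average log2 difference was 0.00 ± 0.05. The values of Ifih1 (the RNA sensor MDA5), Eif2ak2 (the kinase PKR) and Oas2 in the average were −0.11, −0.06 and −0.35, and none passed.

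Of the 11 members that restrict viruses, Bst2 and Ifitm3 rose in the average and 9 did not pass. Bst2 encodes tetherin, which holds budding virus at the cell surface (Gene 69550, chr8:71534255-71537472). Its CPM was 2.32, 2.57 and 3.87 in Control and 3.31, 4.14 and 4.99 in Control_EC12. It was 2.37, 2.75 and 3.38 in MS and 2.94, 4.24 and 5.49 in MS_EC12. In Control 1 library reached into the supplemented range, and 3 of 6 Control_EC12 and 4 of 6 MS_EC12 libraries lay above all of their counterparts. Averaged over the rearings, the log2 fold change was 0.58 ± 0.11 with an adjusted p of 0.0142 in edgeR.

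Ifitm3 encodes a membrane protein that blocks entry of viruses (Gene 66141, chr7:141009590-141010744). Its CPM was 6.94, 7.74 and 9.84 in Control and 7.09, 10.2 and 16.2 in Control_EC12. It was 6.92, 7.86 and 9.86 in MS and 6.80, 11.6 and 13.6 in MS_EC12. The groups overlapped at their low ends, where the lowest MS_EC12 library lay below every MS library. The average log2 fold change of 0.42 ± 0.12 had an adjusted p of 0.0361 in edgeR.

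Cmpk2, a mitochondrial nucleotide kinase gene, went the other way in part of the data. Its mean CPM was 22.9 ± 0.915 (SD) in Control, 22.5 ± 0.680 in MS, 23.1 ± 2.66 in Control_EC12 and 19.0 ± 2.71 in MS_EC12, and the lowest libraries of those groups stood at 21.5, 21.6, 18.1 and 16.6. In MS_EC12 5 of 6 libraries lay below every MS library, and the difference of −0.25 ± 0.08 had an adjusted p of 0.0871 in edgeR. The near-identical copies Ifit3 and Ifit3b, whose reads could have been split between them, stood at −0.60 ± 0.28 and −0.60 ± 0.25 in MS_EC12 against MS. Samd9l, a gene of growth and viral restriction, was at −0.66 ± 0.37 in that comparison. None of these passed. With the GC slope as covariate, or in the libraries of GC slope below 0, 0 members were lower there at an unadjusted p under 0.05. In the average, Rsad2 (viperin), Mx1, Mx2, Ifit1 and Ifi44 lay between 0.12 and 0.40, and Mx1 and Mx2 are annotated as transcribed pseudogenes in this reference.

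None of the 5 guanylate-binding proteins and immunity-related GTPases, which act on vacuoles that hold microbes, passed in the average. Igtp had CPM of 3.61, 3.88 and 4.79 in Control, 3.45, 3.93 and 4.60 in MS, 4.01, 4.56 and 6.05 in Control_EC12 and 3.58, 4.59 and 6.16 in MS_EC12. The ranges overlapped, and the average effect of 0.26 ± 0.10 had an adjusted p of 0.0749 in edgeR. Gbp7 had CPM of 4.69, 5.24 and 5.92 in Control, 2.73, 4.73 and 5.204 in MS, 1.56, 6.28 and 7.09 in Control_EC12 and 1.73, 2.82 and 6.73 in MS_EC12. Both supplemented groups spread above and below the unsupplemented ones, and the average effect was −0.09 ± 0.22. Gbp3 spread in the same way, from 1.56 to 7.13 CPM in Control_EC12 and 1.29 to 4.23 in MS_EC12, against 3.10 to 4.83 in Control and 1.54 to 3.94 in MS. Its average effect was 0.00 ± 0.22. Gbp2 and Irgm1 stood at 0.09 and 0.04.

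Of the last 4 members, 2 rose in the average. Ifi27 encodes a mitochondrial protein tied to cell death (Gene 52668, chr12:103434189-103440245), and its span overlaps Ifi27l2a, so reads could have been split. Its CPM was 16.9, 17.8 and 19.9 in Control and 19.1, 22.1 and 31.9 in Control_EC12. It was 17.8, 20.2 and 22.1 in MS and 21.4, 23.5 and 26.1 in MS_EC12. In the Control rearing 5 of 6 and in the MS rearing 4 of 6 supplemented libraries lay above all counterparts. Over both rearings the log2 fold change was 0.31 ± 0.07 with an adjusted p of 0.0202 in edgeR.

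Lgals3bp encodes a secreted glycoprotein that binds galectins (Gene 19039, chr11:118392747-118401959), and it had the smallest adjusted p of the members. Its CPM was 11.2, 13.5 and 14.6 in Control and 15.7, 18.2 and 18.6 in Control_EC12. It was 12.6, 13.8 and 15.7 in MS and 14.7, 18.7 and 26.1 in MS_EC12. In the Control rearing the groups did not overlap, which held for 0.511% of all genes and for no other member, and in the MS rearing 5 of 6 supplemented libraries lay above every MS library. The average log2 fold change was 0.41 ± 0.08 with an adjusted p of 0.0123 in edgeR.

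Xaf1, whose product opposes an inhibitor of cell death, had CPM of 2.76, 3.26 and 3.75 in Control, 2.94, 3.19 and 3.70 in MS, 2.34, 4.15 and 4.33 in Control_EC12 and 3.36, 3.84 and 5.15 in MS_EC12. The ranges overlapped, and its average effect of 0.27 ± 0.10 had an adjusted p of 0.0662 in edgeR. Shisa5, a gene of cell death with a deposited TPM of 73.4 on average, the second of the members after Adar, stood at medians of 51.8, 52.1, 50.6 and 61.3 CPM. Its ranges were 44.0 to 56.9, 45.2 to 61.0, 44.9 to 66.0 and 47.6 to 69.8, and the average effect was 0.10 ± 0.07.

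**Figure D2:**
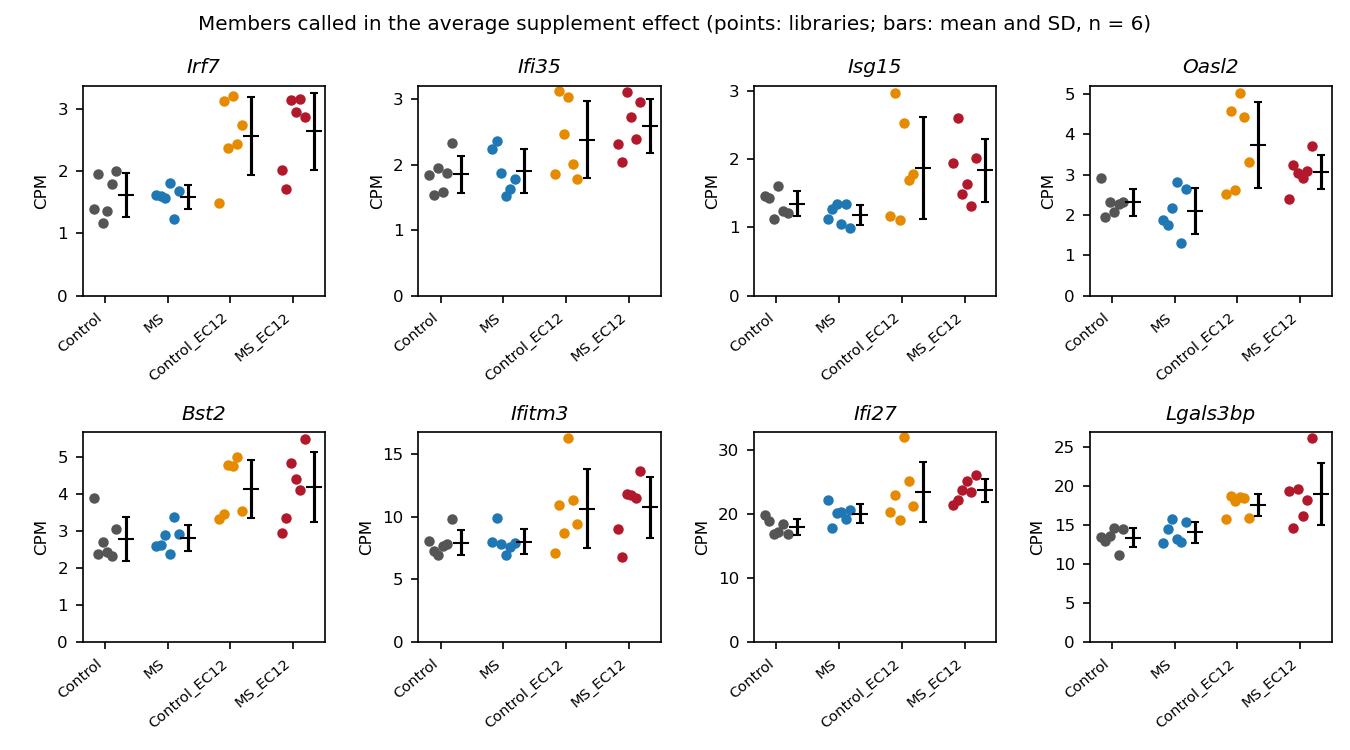
CPM of the 8 members called in the average supplement effect, with 1 point per library and bars for the mean and SD of 6 libraries. For Irf7, 5 of 6 supplemented libraries lie above all unsupplemented ones in each rearing, and for Lgals3bp the Control and Control_EC12 libraries do not overlap.

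Taken 1 rearing at a time, the supplement gave no member that passed in edgeR. In Control_EC12 against Control, edgeR called 0 of the 41 members, where it called 0.0218% of all genes, and DESeq2 called 1 (Ifi27), where it called 0.403%. At an unadjusted p under 0.05, 8 members were higher and 0 lower, or 19.51% higher against 5.62% of all genes (3.31% of all genes were lower). The median was 0.16 against 0.01 over all genes, 37 of 41 members were above 0, and the smallest adjusted p was 0.164 in edgeR. Leaving out 1 library gave medians from 0.078 to 0.247. The lowest came without Control_EC12 2, where 24 of 41 members were above 0. On the deposited TPM, limma gave a median of 0.10 with 25 of 41 above 0, against a median of −0.04 over all genes. With the GC slope as covariate the median was 0.227, and 14 members were higher and 0 lower at an unadjusted p under 0.05. By that rule 1252 of 18380 genes were higher. The libraries of GC slope below 0 gave a median of 0.286, with 18 members higher and 0 lower, where 1343 genes were higher. In MS_EC12 against MS, edgeR called 0 members and 0.163% of all genes. DESeq2 called 5 members (12.2%), of which 4 were higher and Cmpk2 was lower, and 10.3% of all genes, so the share of members was near that of all genes. At an unadjusted p under 0.05, 11 members were higher and 4 lower (Stat2, Cmpk2, Ifit3 and Ifit3b). Of all genes 15.5% were higher and 16.3% lower by that rule. The median was 0.11 against 0.02, 24 of 41 were above 0, and the smallest adjusted p was 0.0754. With the GC slope as covariate 15 members were higher and 0 lower at an unadjusted p under 0.05, where 827 of 18380 genes were higher. The libraries of GC slope below 0, of which only 2 are MS_EC12, gave 7 members higher and 0 lower, where 898 genes were higher. In limma on the deposited TPM the medians of this comparison were −0.06 for the members and −0.09 for all genes, so the members' sign turned in that fit, which changes the values and the model at once. RLE and upper-quartile scaling in edgeR kept it, at 0.11 and 0.16. Leaving out 1 library gave 0 to 9 members called in MS_EC12 against MS. There were 6 higher and 3 lower without MS 3 (22.0%, where 21.3% of all genes were called), 7 and 2 without MS_EC12 1 (22.0% and 27.2%), and 7 and 1 without MS_EC12 2 (19.5% and 24.9%). In these fits the share of members called was near or below that of all genes. Without Control_EC12 4 there were 3, all higher (7.32%, where 4.85% of all genes were called).

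These supplement comparisons share no library, though the average above reuses the libraries of both. The genes higher at an unadjusted p under 0.05 in each of them were 8 of the 41 members (19.51%) and 427 of 18380 genes (2.32%). The 8 were the genes called in the average. Of the 41, 23 were above 0 in both, 3 below 0 in both, 14 above 0 in the Control rearing alone and 1 in the MS rearing alone. Over all genes 38.12% were above 0 in both. Across the 41 members the log2 fold changes of the comparisons correlated at r = 0.593, and across all genes at 0.42. Genes measured in the same libraries are not independent replicates, so these are descriptions.

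**Figure D3:**
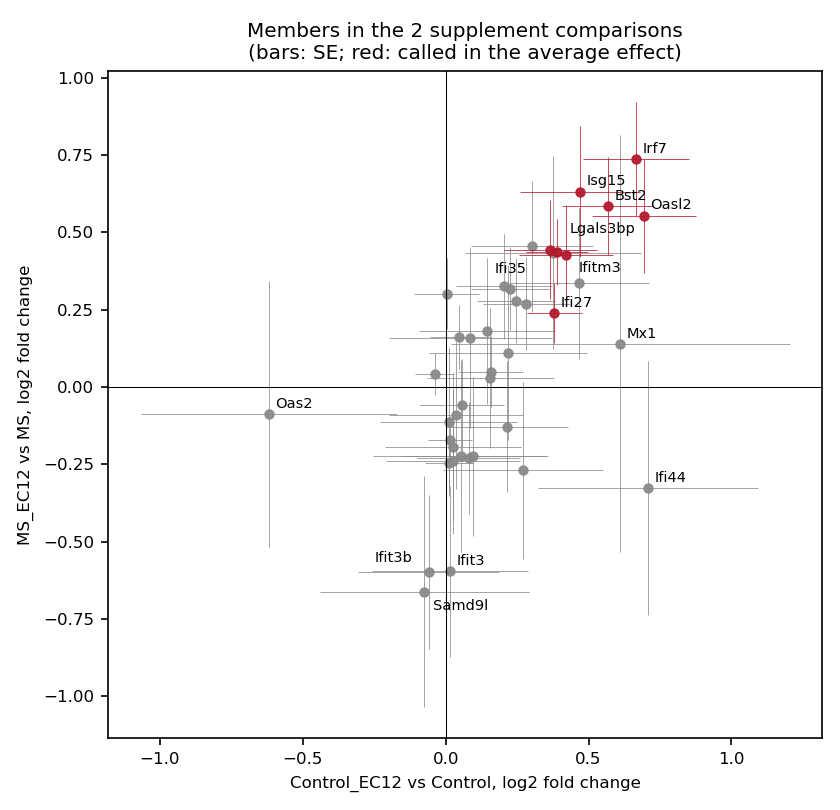
Log2 fold change of each member in Control_EC12 against Control (horizontal) and in MS_EC12 against MS (vertical), with bars for the SE. The 8 called members, in red, lie above 0 on both axes, while Samd9l, Ifit3 and Ifit3b lie near 0 on the horizontal axis and at −0.66, −0.60 and −0.60 on the vertical one.

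For maternal separation without the supplement, no member passed. In MS against Control, edgeR called 0 of the 41 members, as did DESeq2, where they called 0.0326% and 0.12% of all genes. At an unadjusted p under 0.05, 0 members were higher and 1 lower (Irf9, −0.32 ± 0.12), against 1.49% and 2.12% of all genes. The median was −0.03 against −0.01 over all genes, and the smallest adjusted p was 0.942 in edgeR. Between the supplemented groups, MS_EC12 against Control_EC12, edgeR and DESeq2 again called 0 members, where they called 0.261% and 0.963% of all genes. Here 6 members were lower at an unadjusted p under 0.05 and 0 higher, where 8.04% of all genes were lower and 7.87% higher. They were Stat2, Parp9, Eif2ak2, Cmpk2, Ifi44 and Gbp3, from −0.27 to −1.14. With the GC slope as covariate 2 members were lower and 0 higher by that rule, where 1572 of 18380 genes differed in either direction. The libraries of GC slope below 0 also gave 2 lower and 0 higher, where 2104 genes differed. Cmpk2 alone passed, as lower, when Control_EC12 3 or MS_EC12 2 was left out. In those fits 1.0% and 0.855% of all genes were called, and 0.442% and 0.33% were lower. For the interaction of separation and supplement, both tools called 0 members, where they called 0.0109% and 0.103% of all genes, and 1 member (Cmpk2, −0.26) was lower and 0 higher at an unadjusted p under 0.05, where 2.02% and 2.78% of all genes were. A difference of the supplement effect between the rearings was thus not shown for any member.

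The members' values moved with the GC content of their transcripts. GC content was 49.4% to 55.8% in the 8 called members (median 53.5) and 38.8% to 54.5% in 32 others with a value (median 46.6), against a median of 49.9% over 15144 tested genes. Across 40 members the average supplement effect correlated with GC content at r = 0.605. The r was 0.711 in MS_EC12 against MS and 0.309 in Control_EC12 against Control. The 17 members below 0 in MS_EC12 against MS included Samd9l at 38.8% GC, Gbp7 at 41.7% and Ifih1 at 42.8%. They also included Stat2 at 51.9% GC, which stood at −0.17 there. Samd9l stood at 0.983 to 3.30 CPM in the 4 MS_EC12 libraries of GC slope above 0, and at 5.59 and 7.85 in the other 2.

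With the slope of each library as a covariate, or in the 17 libraries of slope below 0 alone, the effect was smaller in 7 of the 8 than in the fit above, Isg15 being the exception, and more members lay above 0. With the covariate the median over the 41 members was 0.29 in the average effect, with 36 of 41 above 0. At an unadjusted p under 0.05, 23 were higher and 0 lower, where 8.35% of all genes were higher. In the 17 libraries, of which only 2 are MS_EC12, the median was 0.25, 35 of 41 were above 0, and 18 were higher and 0 lower, where 7.98% of all genes were higher. The median over all genes was 0.01 and 0.00 in those fits. After adjustment 3 members were called in each, which were Eif2ak2, Lgals3bp and Xaf1 with the covariate and Gbp7, Isg15 and Lgals3bp in the 17 libraries, where 0.185% and 0.267% of all genes rose. The r with GC content was 0.00 with the covariate, which takes out the dependence by construction, and −0.03 in the 17 libraries.

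Of the 8 genes, Lgals3bp alone was called in both of these fits, at 0.31 ± 0.07 (adjusted p = 0.0463 in edgeR) and 0.33 ± 0.07 (adjusted p = 0.0464). Isg15 stood at 0.64 and 0.73, Oasl2 at 0.61 and 0.56, and Irf7 at 0.56 and 0.41. Bst2 was at 0.40 and 0.32, Ifi27 at 0.28 and 0.22, Ifi35 at 0.29 and 0.21, and Ifitm3 at 0.28 and 0.13. All 8 were above 0 in both fits. Gbp7, at −0.09 in the 24 libraries, stood at 0.34 with the covariate and at 0.41 in the 17 libraries, with an adjusted p of 0.0322 in edgeR in the latter.

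**Figure D4:**
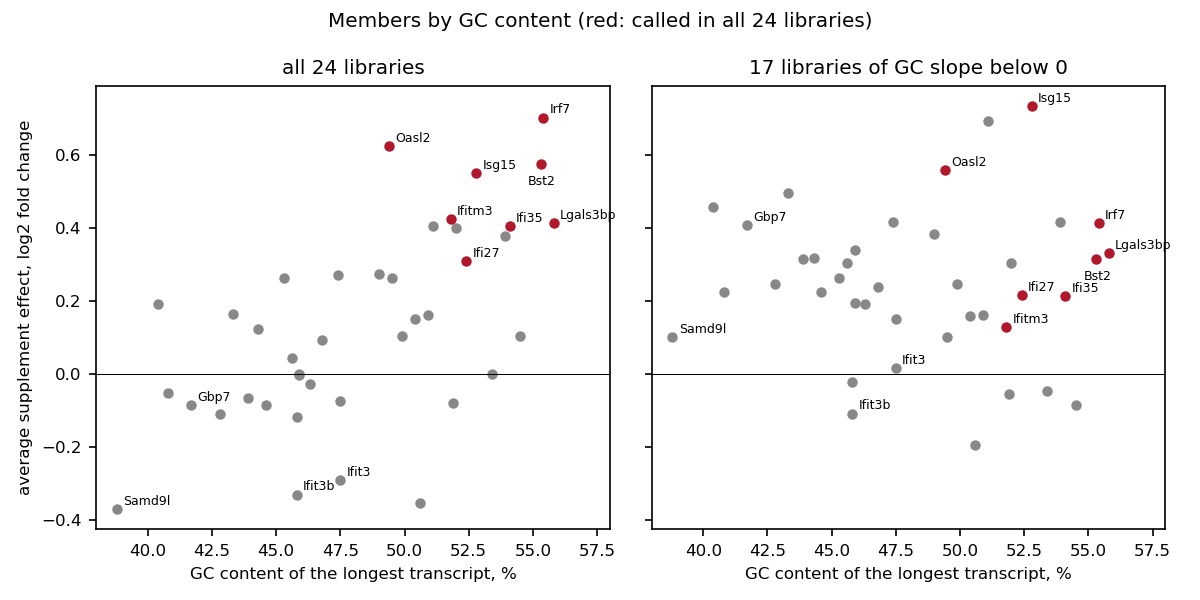
Average supplement effect of each member (log2 fold change) against the GC content of its longest transcript, in all 24 libraries (left) and in the 17 of GC slope below 0 (right). The points rise with GC content on the left (r = 0.605) and do not on the right (r = −0.03), where Gbp7 stands at 0.41.

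The level of the list was also read in each library, as the median over members of log2 CPM minus the member's mean over the 24 libraries. It ran from −0.07 to 0.16 in Control, −0.33 to 0.08 in MS, −0.29 to 0.54 in Control_EC12 and −0.28 to 0.26 in MS_EC12, so all groups overlapped. Control_EC12 2 was the highest, with 37 of 41 members above their own mean, and its GC slope was −0.11. The lowest were MS 3, Control_EC12 3 and MS_EC12 6, all of GC slope above 0. Over the 8 called members alone, which were chosen on these libraries, the level was −0.32 to −0.12 in Control, −0.32 to −0.20 in MS, −0.14 to 0.63 in Control_EC12 and −0.04 to 0.48 in MS_EC12.

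**Figure D5:**
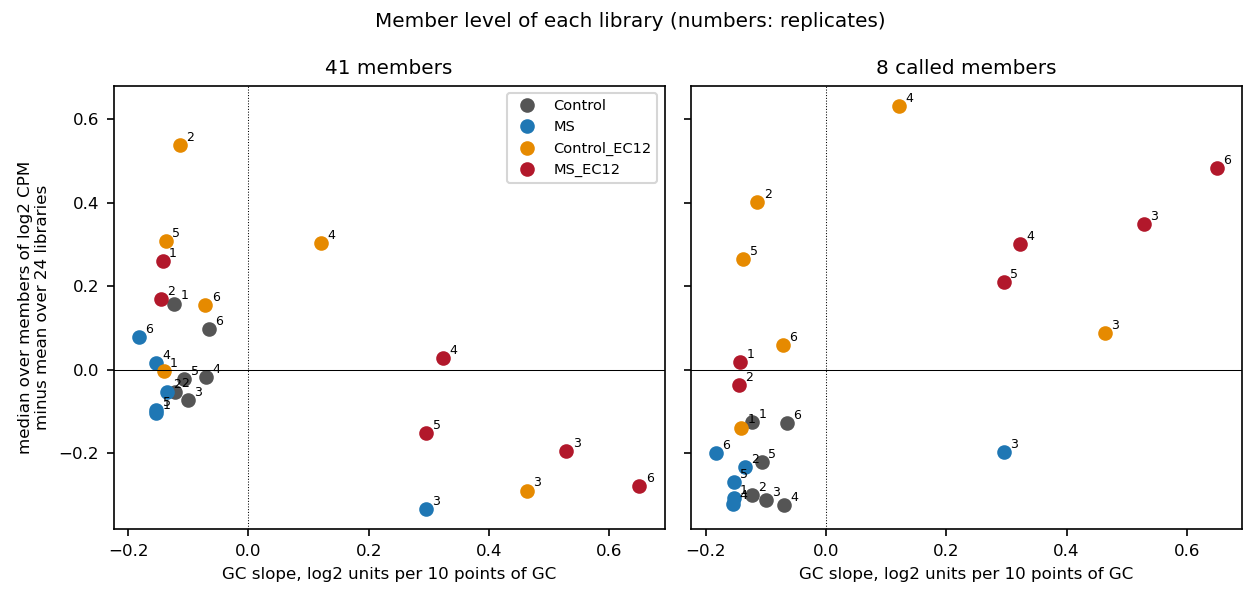
Median over the 41 members (left) and the 8 called members (right) of log2 CPM minus the mean over 24 libraries, against each library's GC slope. On the left Control_EC12 2 is highest at 0.54 and MS 3 lowest at −0.33, and on the right the MS_EC12 libraries of GC slope above 0 lie at 0.21 to 0.48 and the others at −0.04 and 0.02.

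The rest of the pathway was read from lists of its ligands, receptors, sensors and other targets. None of 11 interferon genes passed the filter, and the highest count of any of them in a library was 3. Of these, 8 had 0 counts in every library (Ifnb1, Ifna1, Ifna4, Ifna5, Ifnk, Ifne, Ifnl2 and Ifnl3). Of 21 receptors, kinases and regulators, Ifngr1, a chain of the interferon gamma receptor, rose by 0.17 ± 0.05 in log2 (adjusted p = 0.0387 in edgeR). Pias1, an inhibitor of this signalling, fell by 0.22 on that scale (adjusted p = 0.0463 in edgeR). Each is 4.762% of that list, where 4.59% of all genes rose and 3.29% fell. Ifnar1 and Ifnar2, the chains of the type I receptor, stood at 0.03 and 0.13, and Jak1, a receptor kinase, at −0.24, and none of these passed. Of 17 sensors and adaptors none passed in edgeR, with 0 higher and 4 lower (23.53%) at an unadjusted p under 0.05. Of all genes 17.2% were higher and 16.1% lower by that rule.

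Of 43 tested genes in a list of other interferon targets, 8 rose (18.6%) and 0 fell in the average, with a median of 0.20. Of all genes 4.59% rose and 3.29% fell. Tap1, a transporter of peptides to class I molecules, went from a median of 2.06 CPM in Control and 2.07 in MS to 3.12 in Control_EC12 and 2.94 in MS_EC12, a log2 fold change of 0.54 ± 0.10 (adjusted p = 0.0135 in edgeR). The immunoproteasome subunits Psmb9, Psmb8 and Psmb10 stood at 0.61 ± 0.13, 0.45 ± 0.12 and 0.34 ± 0.09. B2m, the light chain of class I molecules, had medians of 67.9, 70.4, 82.0 and 88.9 CPM in Control, MS, Control_EC12 and MS_EC12, and a fold change of 0.31 ± 0.06 (adjusted p = 0.0177 in edgeR). Its GC content was 41.2%, while that of the other 7 ran from 50.6% to 56.5%, against a median of 49.9% over tested genes. The other 3 were Lgals9 (a galectin, 0.44 ± 0.10), Parp12 (an ADP-ribosyltransferase, 0.33 ± 0.08) and Uba7 (the enzyme that activates ISG15, 0.36 ± 0.11).

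Some markers of cell types and neighbouring tissue also moved in the average supplement effect, in which 4.59% of all genes rose and 3.29% fell. Of 12 microglial markers 5 rose in the average, among them C1qa, C1qb, C1qc and Trem2, from 0.31 to 0.37, while P2ry12, Tmem119 and Cx3cr1 (−0.09, 0.17 and 0.07) did not pass. The 12 summed to 434 to 504 CPM in Control, 443 to 520 in MS, 498 to 576 in Control_EC12 and 473 to 612 in MS_EC12, and none was at 0. All 6 markers of the olfactory bulb, a neighbouring tissue, were above 0, with a median of 0.90, though none passed (smallest adjusted p of 0.0563 in edgeR). At an unadjusted p under 0.05 all 6 were higher, where 17.2% of all genes were. They summed to 32.3 to 195 CPM in Control, 21.9 to 159 in MS, 116 to 378 in Control_EC12 and 51.3 to 310 in MS_EC12. Of 6 markers of meningeal fibroblasts 1 rose (Slc6a13, 0.48 ± 0.10), and the list summed to 124 to 150, 108 to 129, 140 to 196 and 105 to 160 CPM. Border macrophage and monocyte markers summed to 5.49 to 10.2 CPM over all libraries, with none of 7 called. Of 6 markers of T and NK cells, Cd3e, Cd3g, Cd8a and Nkg7 had at most 7 counts in any library. The other 2 were tested, and the highest count of the list was 1108. They stood at 0.06 and 0.26 in the average, and neither passed (smallest adjusted p of 0.132 in edgeR). At an unadjusted p under 0.05, 1 of the 2 was higher. Of 5 astrocyte markers Gfap and Aldh1l1 rose (0.36 and 0.21), and 2 others were lower at an unadjusted p under 0.05. By that rule 16.1% of all genes were lower. The lowest of the 5 was −0.32 and their median 0.02. The list summed to 988 to 1103, 915 to 1052, 852 to 1273 and 872 to 1112 CPM in Control, MS, Control_EC12 and MS_EC12. Of 8 markers of excitatory neurons Neurod6 fell by 0.27 and Rorb fell by 0.40, with sums of 1524 to 1792, 1286 to 1870, 1400 to 1948 and 1462 to 2025 CPM. Of 6 markers of inhibitory neurons Gad2 fell by 0.32, with sums of 1150 to 1254, 1098 to 1269, 1131 to 1337 and 1146 to 1224 CPM. None of 6 endothelial, 5 oligodendrocyte, 3 tested neutrophil and 2 tested B and plasma cell markers passed, and of 4 for plasmacytoid dendritic cells Bst2 alone did. The 3 neutrophil markers, at most 65 counts in a library, were lower at an unadjusted p under 0.05 in MS against Control. Their median there was −1.28, and 2.12% of all genes were lower. In MS_EC12 against MS it was 0.96, and none passed in either. The part of any of these cells or tissues in the members' result was not tested.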

How the data were processed

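The deposited table holds read counts per gene, left unnormalized by the authors, and TPM values that the authors derived per the file headers. FPKM columns, also from the authors per the file headers, were not used. Build mm10 and the tools DESeq2, StringTie 2.1.3b, HISAT2 2.1.0, Trimmomatic 0.38 and FastQC 0.11.7 are listed per the submitters' processing notes, with roles, counting rule and strand setting not given in the sources used here. Reads of overlapping genes (Stat2 with Apof, Parp9 with Dtx3l, Rtp4 with Masp1, Eif2ak2 with Gm26637, Adar with Chrnb2, Ifit1 and Ifit3b with Ifit1bl1, Ifi27 with Ifi27l2a) could have been split.

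Members and lists were chosen with earlier results of these data known. Genes were kept by filterByExpr (minimum count 10, minimum total 15), which removed low genes that these depths of 26250197 counts or more measure poorly. They were tested in edgeR 4.0.16 (R 4.3.3, TMM scaling, quasi-likelihood, 2-sided) with 1 coefficient per group over 24 libraries, and p-values were adjusted over all 18380 genes. The average supplement effect is the mean of Control_EC12 minus Control and MS_EC12 minus MS. Log2 CPM used a prior count of 2. RefSeq matched 99.79% of gene identifiers. The test was run on simulated counts for Control_EC12 against Control and for MS_EC12 against MS. The average supplement effect and the GC slope of the libraries were not simulated. No pair of libraries was a duplicate (chi-square per gene of 5.02 or more).

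Values in every group were given for members called in any comparison, for the 3 of smallest p in each role, and for the 3 of highest TPM. Outside the members, up to 8 pathway genes of smallest p were given values. Alternatives were RLE and upper-quartile scaling, no filter, a minimum count of 30, the replicate number as a block, the GC slope as covariate, libraries of GC slope below 0, only the groups compared, DESeq2 1.42.0, limma 3.58.1 on log2(TPM + 0.1), and leaving out each library. Some single genes are not reported here.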

Additional observations from a re-analysis of the deposited data

Results flagged for a closer look

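The 20 members given with values and the level of the list were checked for single libraries far from the rest of their group of 6, as the gap to the nearest other library divided by the range of the group in log2 CPM (the ratio below), against Dixon's critical value. Chance gives such a library in about 1 of 20 groups, 84 groups were checked and 5 stood out. Irf7 in MS library 5 was low at 1.226 CPM (ratio 0.646). Rtp4 in MS library 2 was low at 1.468 CPM (ratio 0.805). Oas1a in MS library 4 was high at 0.8853 CPM (ratio 0.786). In Control_EC12 library 3, Cmpk2 was low at 18.11 CPM (ratio 0.649) and Gbp7 was low at 1.558 CPM (ratio 0.676). That library has a GC slope of 0.4632, and the part of the slope in these 2 values was not tested.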

How the results depend on the processing

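Of the alternatives that change the scaling, filter, model or libraries, the members' count in MS against Control and in the interaction stayed at 0 in all that were run. In the average supplement effect 8 members (19.5%) were called, where 7.88% of all genes were. With no filter on low counts, where 31547 genes were tested, there were 5 (12.2%), and 1.06% of all genes were called. With the GC slope as covariate there were 3 (7.32%), where 0.452% of all genes were called. The libraries of GC slope below 0 gave 3 (7.32%), where 0.62% were. The members' count ran from 5 to 10 when 1 library was left out, where 1.15% to 24.9% of all genes were called. In Control_EC12 against Control DESeq2 called 1 member (Ifi27, 2.44%), where 0.403% of all genes were called. In MS_EC12 against MS DESeq2 called 5 (12.2%, where 10.3% of all genes were called), and leaving out 1 library gave 0 to 9, where up to 27.2% of all genes were called. In MS_EC12 against Control_EC12 leaving out 1 library gave 0 to 1, where up to 1.0% of all genes were called. With the replicate number as a block, MS_EC12 against MS gave 7 members (Bst2, Irf7, Isg15, Lgals3bp and Oasl2 higher, Cmpk2 and Ifit3 lower) and the average 10. These are 17.1% and 24.4% of members, where 20.7% and 24.8% of all genes were called in either direction. The 10 of the average all rose, while among all genes 10.5% rose and 14.2% fell in that fit. The replicate numbers do not pair the libraries by the labels. Over 36 pairs of the same number the deviations from the group means correlated at −0.3 to 0.575 (median 0.082, 13 over 0.1), against a median of −0.014 for other pairs. Of named members with values near 0, Gbp3 in the average was −0.004 with RLE scaling, −0.001 with no filter, −0.043 with the replicate block, −0.003 in DESeq2 and −0.129 on TPM, and −0.099 to 0.089 without 1 library. Adar was −0.002 with RLE scaling, −0.001 with the block, −0.071 with the GC covariate, −0.047 in the libraries of slope below 0, −0.002 in DESeq2 and −0.082 on TPM, and −0.021 to 0.022 without 1 library. Gbp7 was 0.342 with the covariate, 0.409 in the libraries of slope below 0, and −0.21 to 0.011 without 1 library. Shisa5 was −0.046 and −0.084 in those 2 fits, and Ifitm3 in MS_EC12 against MS was −0.029 in the libraries of slope below 0. The cause of these shifts was not tested. The SE of the average effect ran from 0.05 (Adar) to 0.49 (Zbp1), with Mx1 (at most 19 counts in a library) at 0.45 and Samd9l at 0.26.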
